A study of Mus musculus with 8 samples.

Results

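The genes described here build cilia or are disabled in cystic kidney disease. They were taken by symbol: all rows of the deposited gene table that start with Dnahc (axonemal dynein heavy chains), or with Ift, Bbs or Nphp followed by a digit, together with Pkd1, Pkd2 and Pkhd1. The rule found 37 of 23504 gene symbols, and it used no measured value. They comprised 11 dynein heavy chain genes, 12 intraflagellar transport genes, 8 Bardet-Biedl genes, 3 nephronophthisis genes, and Pkd1, Pkd2 and Pkhd1. RNA came from hand-dissected outer renal cortex, with the capsule removed, of wild type mice of the C57Bl6/J strain. One group ate a high fat diet (libraries A, B, F and G) and the other a control diet (libraries I, J, L and M), from 6 weeks of age for 9 weeks, to an age of 15 weeks. The labels give neither the composition of the diets nor the sex of the mice, and do not state whether the 4 libraries of a diet are from different animals. The p-values therefore speak only of the spread among libraries, which may be technical.

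Most cells of the renal tubule carry a single immotile primary cilium. Intraflagellar transport trains carry cargo along it, the BBSome (a complex of Bardet-Biedl proteins) moves membrane proteins in and out, and nephrocystins sit at its base. The polycystins (Pkd1 and Pkd2) and fibrocystin (Pkhd1) lie in its membrane and are mutated in polycystic kidney disease. Axonemal dynein heavy chains are the motors of motile cilia and sperm tails, structures that primary cilia do not have.

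Of the 37 genes, 35 had enough counts to be tested, and 3 of them changed between the diets, all of them higher on the high fat diet and all of them dynein heavy chains: Dnahc9, Dnahc5 and Dnahc7b. That is 3 of 35, where 9.99% of all 14711 tested genes changed, 4.86% being higher and 5.13% lower (edgeR quasi-likelihood test, adjusted p under 0.05). None of the 26 genes of the other roles changed in edgeR. Of these, 2 (Ift122 and Ift88) had an unadjusted p under 0.05, where 4026 of all 14711 tested genes did. Ift122 was called by DESeq2 and by edgeR without control M. On the FPKM values as deposited, whose totals include Rn45s, limma called none of 30 tested members, with 2 at an unadjusted p under 0.05. Of all 15373 genes tested there, it called 125 with 0.1 added before the log2 and 148 with 1 added. On FPKM rescaled without Rn45s it called Dnahc5 and Dnahc9, and 793 of all 15361 tested genes. Dnahc1 and Dnahc6 had too few counts to be tested.

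The 250 bases before the RefSeq start (build GRCm38.p6, written on the strand of the gene) are shown for the 3 genes that changed and for Dnahc7a, a close copy of Dnahc7b. The start of Dnahc5 in the table lies 48.9 kilobases inside the RefSeq bounds of the gene, so its sequence may not be the promoter used in these libraries; the starts of the other 10 dynein genes lie at most 1995 bases inside. Capitals mark matches to the motifs listed after the sequences.
Dnahc5 promoter, chr15:28203516-28203765, plus strand: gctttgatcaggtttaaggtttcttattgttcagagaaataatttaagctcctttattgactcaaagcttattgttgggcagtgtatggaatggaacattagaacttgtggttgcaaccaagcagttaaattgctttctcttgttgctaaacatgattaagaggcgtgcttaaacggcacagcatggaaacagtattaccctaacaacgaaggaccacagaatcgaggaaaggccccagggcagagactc
Dnahc9 promoter, chr11:66168552-66168801, minus strand: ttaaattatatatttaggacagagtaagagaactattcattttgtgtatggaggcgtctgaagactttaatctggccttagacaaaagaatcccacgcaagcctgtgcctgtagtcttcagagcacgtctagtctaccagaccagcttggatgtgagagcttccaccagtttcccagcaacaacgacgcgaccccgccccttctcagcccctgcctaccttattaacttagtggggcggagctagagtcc
Dnahc7b promoter, chr1:46066603-46066852, plus strand: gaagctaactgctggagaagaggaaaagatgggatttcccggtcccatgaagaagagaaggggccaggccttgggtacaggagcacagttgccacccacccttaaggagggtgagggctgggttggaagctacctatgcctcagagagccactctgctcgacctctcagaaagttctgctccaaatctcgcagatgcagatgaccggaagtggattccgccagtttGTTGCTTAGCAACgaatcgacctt
Dnahc7a promoter, chr1:53706785-53707034, minus strand: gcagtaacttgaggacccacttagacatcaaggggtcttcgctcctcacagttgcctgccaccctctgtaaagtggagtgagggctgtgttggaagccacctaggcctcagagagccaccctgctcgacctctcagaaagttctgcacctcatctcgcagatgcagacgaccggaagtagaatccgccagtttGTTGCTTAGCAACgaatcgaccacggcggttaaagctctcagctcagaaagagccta

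Promoters were found in the RefSeq table for 32 of the 37 genes (34 promoters, 1 for each dynein gene), and 3 motifs were searched on both strands. The X-box, the site of RFX factors that act on many cilium genes, was written as GTNNCC, 0 to 3 bases and GGNAAC. It matched 3 of the 32 genes (Bbs7, Ift57 and Nphp4) and 1.92% of all 32851 promoters. In Bbs7 the match was GTTGCCTTGGAAAC, 121 to 108 bases before the start. None of the 11 dynein promoters, with the Dnahc5 start above among them, held a match to this form in these 250 bases. A pair of half-sites, GTTGC and GCAAC with 2 to 5 bases between them, was added after the sequences were read. It matched 3 of 11 dynein promoters (Dnahc7a, Dnahc7b and Dnahc6), none of the 23 promoters of the other 21 genes and 0.393% of all promoters. The match lay 24 to 12 bases before the start of Dnahc7b and 57 to 45 bases before that of Dnahc7a. Those promoters shared a run of 33 bases that holds it, so they are not separate examples. In Dnahc6 the match was GTTGCTAAGCAAC, 36 to 24 bases before the start. The FOXJ1 core GTAAACA matched Dnahc17 alone of the 32 genes, where 3.17% of all promoters held it. No match among these genes overlapped a match to another of the motifs. A match here is a description of letters, and no binding was measured.

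Total expected counts ran from 23503593 to 30781585 per library. Rn45s, the ribosomal RNA precursor, took 50.3% of control J and 1.23% to 13.3% of the other libraries. It was left out, which left 13988355 counts in tested genes in control J and 21784078 to 30389083 in the others. Levels are therefore CPM (counts scaled to a common library total), without Rn45s and with TMM factors. The 9 proximal tubule markers summed to between 22332 and 23470 CPM on the high fat diet and between 22480 and 23909 on the control diet, so the labelled tissue carried its defining markers. Single proximal tubule genes moved both ways: Slc34a1 was higher (log2 0.33), and Cubn (log2 -0.26) and Aqp1 (log2 -0.22) were lower. An unadjusted p under 0.05 in edgeR was found for 6 of the 9, and for 4026 of all 14711 tested genes. Of the 6 thick ascending limb markers, 4 were lower on the high fat diet (summed 2856 to 3601 CPM against 3582 to 4240, which overlap), where 5.13% of all tested genes were lower. The 6 intercalated cell markers summed to 271 to 302 CPM against 318 to 352, which do not overlap, and 1 of them was lower (Rhcg). Of the 7 principal cell markers, 2 were lower (Scnn1g and Avpr2; summed 319 to 384 CPM against 338 to 455). Of the 5 red cell markers none passed, and 1 library of each diet stood apart in their sum: 2300 CPM in high fat G against 413 to 563 in A, B and F, and 871 in control J against 373 to 402 in I, L and M. The part of these markers in the results below was not tested, and in bulk RNA fewer cells of a type and less RNA per cell cannot be told apart.

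**Figure D1:**
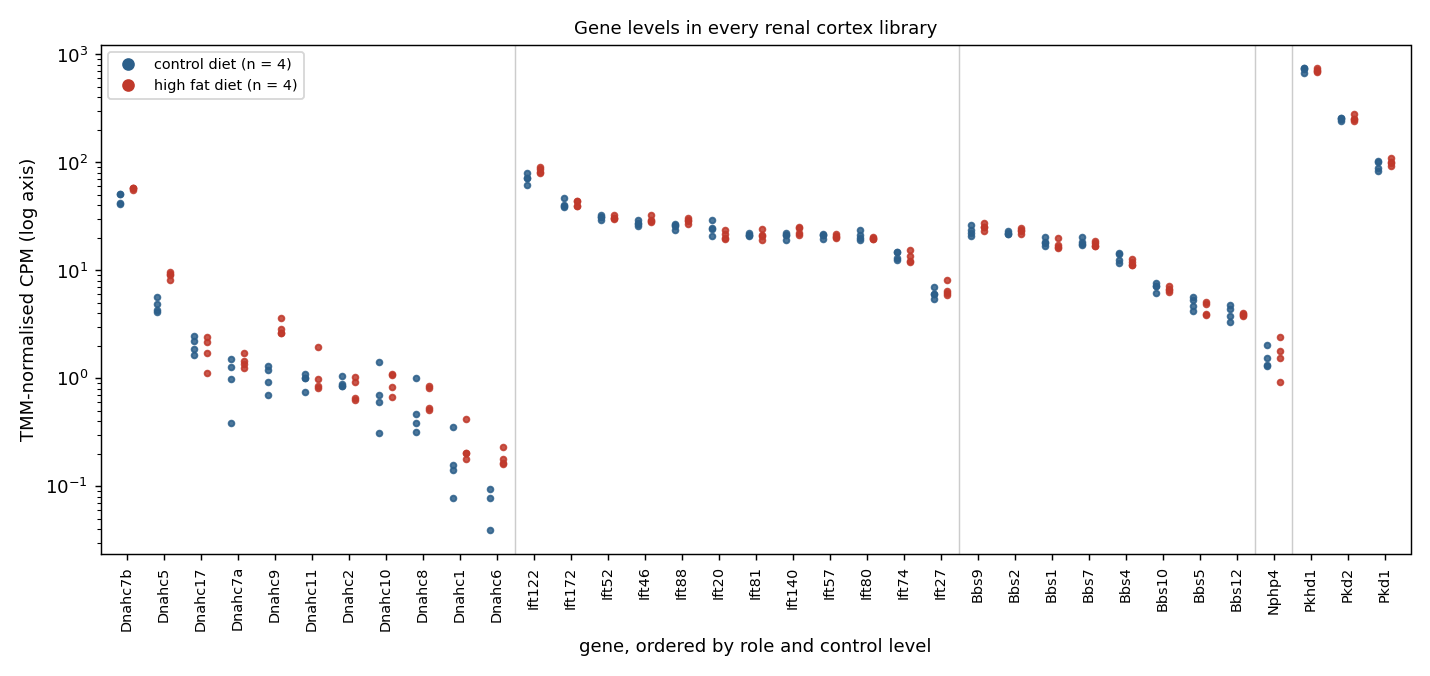
Each point is 1 library. 35 of the 37 genes are drawn. The vertical axis is TMM-normalised CPM on a log axis, and genes stand along the horizontal axis by role (dyneins, intraflagellar transport, Bardet-Biedl, nephronophthisis, polycystic kidney genes) and by control level within a role, with control libraries on the left in blue and high fat libraries on the right in red. Control L had no Dnahc6 count and is not drawn for it. The 2 colours stand apart for Dnahc7b, Dnahc5, Dnahc9 and Dnahc6, and overlap for the other genes drawn.

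On the control diet the dynein heavy chains were the scarcest of the 37 transcripts per length, with 1 exception. Per kilobase of transcript, Dnahc7b stood at 3.75 CPM, followed by Dnahc5 at 0.306, Dnahc17 at 0.138 and Dnahc7a at 0.0850. Dnahc9 stood at 0.0751 CPM per kilobase, and the other 6 dynein genes were at or below 0.0685.

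Dnahc5 encodes an outer arm heavy chain and is a common gene of primary ciliary dyskinesia in people (now Dnah5, chromosome 15, 28154854 to 28472045). Its level was 4.34, 4.12, 4.94 and 5.71 CPM in control libraries I, J, L and M, and 8.08, 9.74, 9.20 and 9.14 CPM in high fat libraries A, B, F and G. The lowest high fat library was above the highest control library. The mean rose from 4.78 ± 0.712 to 9.04 ± 0.696 CPM (SD, n = 4), a fold of 1.87 (95% interval 1.56 to 2.23). The log2 fold change was 0.90 ± 0.117 (SE), with adjusted p = 0.00214 in edgeR. It rested on 53 to 225 counts per library.

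Dnahc9 encodes another outer arm heavy chain, the partner of Dnahc5 in the distal part of airway cilia (now Dnah9, chromosome 11, 65831324 to 66168581). It stood at 0.704, 0.934, 1.31 and 1.2 CPM in controls I, J, L and M and at 2.62, 2.61, 3.66 and 2.84 CPM in high fat A, B, F and G. Every high fat value was above every control value. The mean rose from 1.04 ± 0.271 to 2.93 ± 0.495 CPM (SD, n = 4), a fold of 2.77 (95% interval 2.04 to 3.77). Its log2 fold change was 1.47 ± 0.203 (SE), with adjusted p = 0.00273 in edgeR. Counts ran from 12 to 89 per library, so the level was measured less precisely than that of Dnahc5. On the log2(FPKM + 0.1) scale, which understates changes of low genes, its rescaled log2 fold change was 0.79 (adjusted p = 0.0426 in limma). An exon of Dnahc9 overlaps the opposite-strand transcript Gm12296, and no source used here gives the strand setting of the counting.

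Dnahc7b encodes an inner arm heavy chain (now Dnah7b, chromosome 1, 46066071 to 46373551). Control libraries I, J, L and M had 50.6, 41.7, 50.8 and 41.5 CPM, and high fat libraries A, B, F and G had 57.7, 58.2, 58.2 and 55.5 CPM. The high fat libraries lay close together, while the controls formed a higher pair (I and L) and a lower pair (J and M). The groups did not overlap. The mean rose from 46.2 ± 5.23 to 57.4 ± 1.3 CPM (SD, n = 4), by a fold of 1.24 (95% interval 1.11 to 1.39). On the log2 scale the change was 0.31 ± 0.0758 (SE; edgeR adjusted p = 0.0280). The call was lost in 5 of 8 fits without 1 library (without high fat A, B or F, or control J or M; adjusted p up to 0.0694 in edgeR) and when the trend of counts with transcript length was removed (log2 0.24, adjusted p = 0.114 in edgeR). Of the 50-base words of its transcript, 48.4% also occur in transcripts of other genes, 38.5% in Dnah7c, which was not analysed here. Reads shared between genes that the authors counted were divided by their estimate. Whether Dnah7c was among those genes was not examined.

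Dnahc7a, the copy among the 37 genes, stood at 1.53, 0.389, 0.988 and 1.26 CPM in controls I, J, L and M and at 1.44, 1.73, 1.36 and 1.26 CPM in high fat A, B, F and G, and the groups overlapped. Its log2 fold change was 0.37 (95% interval -0.22 to 0.96). Per kilobase, Dnahc7a was at 0.0850 CPM and Dnahc7b at 3.75 CPM on the control diet, although their promoters, printed above, share sequence. With the counts of both summed, the log2 fold change was 0.32, with adjusted p = 0.0284 in edgeR.

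The authors' deposited table by gene symbol lists 1133 genes, and Dnahc5, Dnahc9 and Dnahc7b are the only 3 of the 37 genes in it. That deposited table gives the authors' folds of high fat over control as 1.89 for Dnahc5, 2.81 for Dnahc9 and 1.25 for Dnahc7b. The authors' deposited table by Ensembl gene lists the same 3 with folds of 1.89, 2.97 and 1.25.

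**Figure D2:**
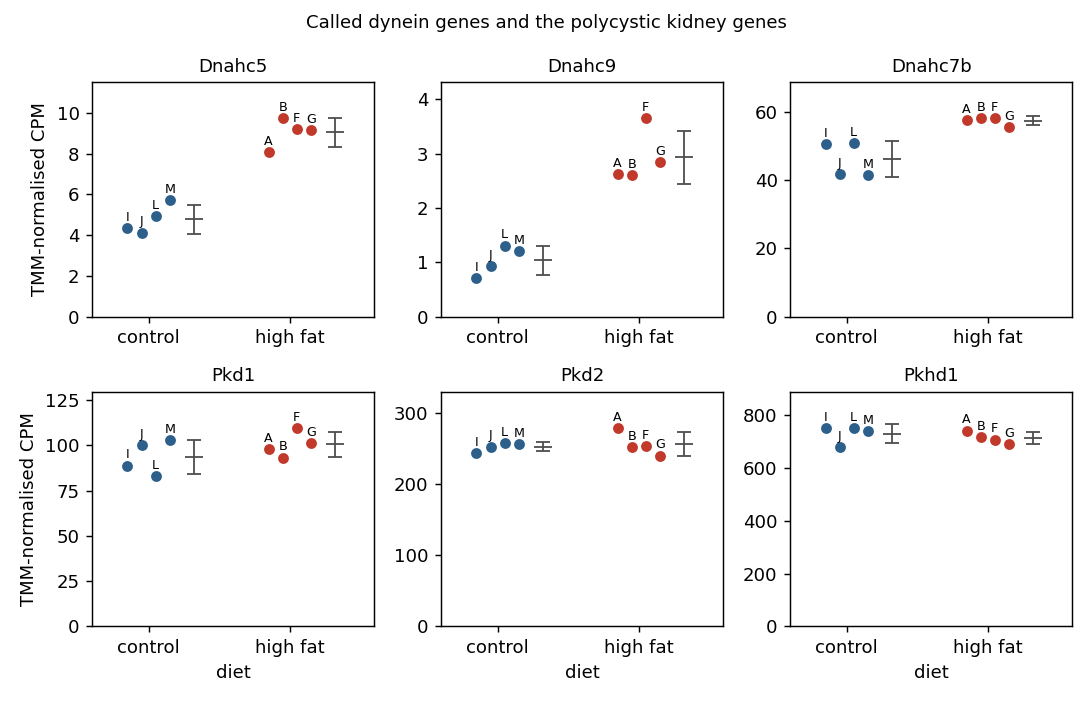
Points are single libraries, labelled with their letter. The vertical axis is TMM-normalised CPM from 0, and the bar beside each group is its mean ± SD (n = 4). High fat libraries lie above all control libraries for Dnahc5, Dnahc9 and Dnahc7b (upper row) and overlap them for Pkd1, Pkd2 and Pkhd1 (lower row).

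The other 8 dynein heavy chain genes did not pass. Of these, 6 were tested, with log2 fold changes from -0.16 (Dnahc2) to 0.37 (Dnahc7a). Their 95% intervals were wide and together ran from -0.64 to 1.04 on the log2 scale. The intervals of Dnahc7a, Dnahc8 and Dnahc10 therefore did not exclude a change as large as that of Dnahc5. Dnahc8, the closest relative of Dnahc5 and a gene of sperm, had 0.547 ± 0.315 CPM on the control diet and 0.679 ± 0.181 on the high fat diet (SD, n = 4). Dnahc11 and Dnahc17, relatives of Dnahc9, had log2 fold changes of 0.24 (95% interval -0.40 to 0.88) and -0.15 (95% interval -0.64 to 0.35). Dnahc11 overlaps exons of the protein-coding gene Cdca7l, and Dnahc17 those of Pgs1, both on the opposite strand. Reads from these overlaps cannot be assigned without strand. Dnahc6 was below the count filter, with 0 to 5 counts per library. It had 0.0391, 0.0778, 0 and 0.0947 CPM in controls I, J, L and M and 0.181, 0.233, 0.164 and 0.162 CPM in high fat A, B, F and G. The groups did not overlap, but 3 counts correspond to between 0.0947 and 0.233 CPM in these libraries, which is the limit that a count of 0 allows. Dnahc1 had 1 to 9 counts per library and its groups overlapped.

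Counting only the 35 tested genes, the 3 called dyneins were also the only genes whose diets did not overlap, 3 of 35 against 17.5% of all tested genes.

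In a list of 30 further genes of the motile axoneme (dynein intermediate chains, assembly factors, radial spoke and docking proteins), 16 were tested, 1 was higher and none was lower, where 4.86% of all tested genes were higher, so 1 of 16 is near the background. An unadjusted p under 0.05 in edgeR was found for 5 of the 16, and for 4026 of all 14711 tested genes. Zmynd10, Ccdc114, Rsph4a and Spag6 were higher and Rsph9 was lower. Ccdc114 and Rsph9, a radial spoke gene, were chosen after their values were seen. Their log2 fold changes were 0.46 (adjusted p = 0.0605 in edgeR) and -0.38 (adjusted p = 0.0659 in edgeR), and the diets did not overlap for either. The called gene was Zmynd10, a dynein assembly factor. It rose from 21.7 ± 1.17 to 26.4 ± 1.25 CPM (SD, n = 4, log2 0.28, adjusted p = 0.0194 in edgeR), a call lost without high fat F, control J or control L. The outer arm intermediate chains Dnaic1 and Dnaic2 were at or below 0.181 CPM in every library, and the axonemal gene Nme8 was at 0 in all of them. Foxj1, the master regulator of motile cilia, had 0.341 ± 0.125 CPM on the control diet and 0.377 ± 0.144 on the high fat diet (SD, n = 4). Of 8 multiciliated cell markers, 5 were tested and none passed. Their log2 fold changes were 0.44 for Ccno, 0.36 for Rsph1, 0.29 for Tppp3, 0.06 for Foxj1 and -0.38 for Spag17. Gmnc (listed as Gm606) was below the count filter. It had 0.122 to 0.233 CPM on the high fat diet and 0 to 0.0782 on the control diet, which do not overlap but rest on very few counts. The sum of the 8 markers ran from 2.64 to 3.45 CPM on the high fat diet and from 2.26 to 2.87 on the control diet, and Mcidas (listed as Mcin) was at 0 in every library. None of 6 germ cell markers had enough counts to be tested, but control M stood apart: their sum was 1.61 CPM there and 0.117 to 0.487 CPM in the other 7 libraries. Prm1, Prm2, Tnp1 and Odf1, genes of sperm, had 0.505, 0.347, 0.347 and 0.0947 CPM in control M and were at 0 in the other controls. Control M was also the highest library for Dnahc8 (1.01 CPM, the other controls 0.318 to 0.469) and Dnahc10 (1.42 CPM, the other controls 0.311 to 0.704). Without control M the log2 fold changes were 0.79 for Dnahc8 and 0.68 for Dnahc10, neither called in edgeR, against 0.23 and 0.16 with it. Leaving out the highest control raises a fold change whatever the reason for its level. The part of germ cell RNA in these values was not tested.

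**Figure D3:**
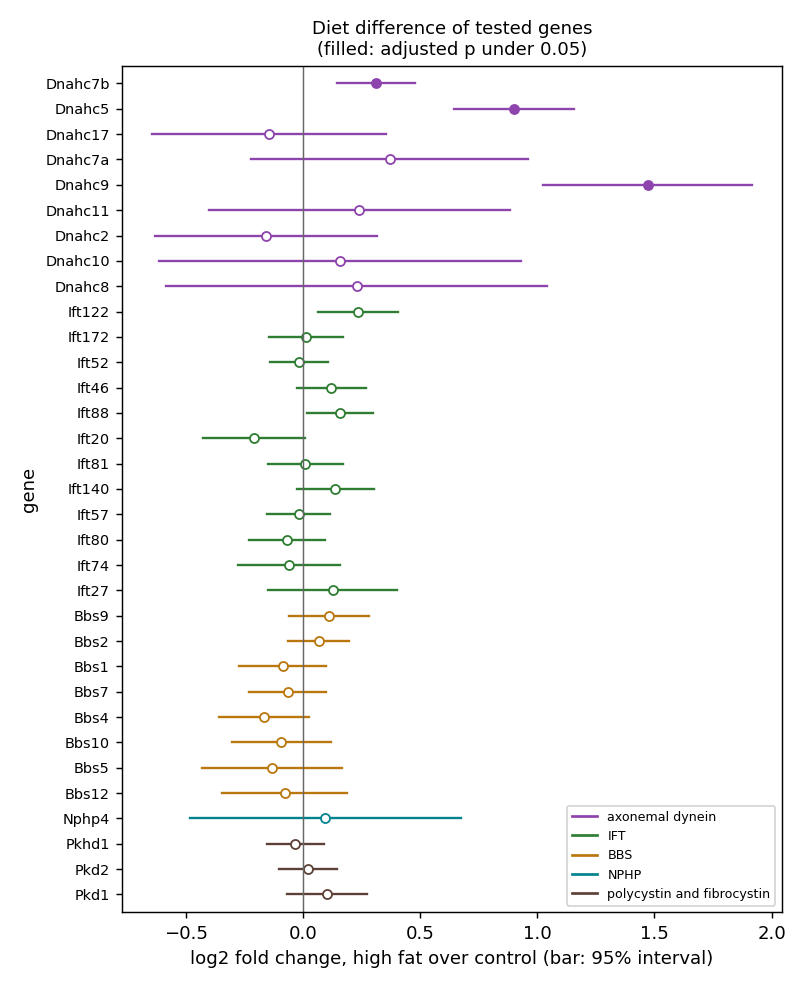
Points are log2 fold changes of high fat over control for 33 of the 35 tested genes, bars are 95% intervals and colours give the role. Filled points are the 3 genes with an adjusted p under 0.05 in edgeR. Dnahc9 (1.47), Dnahc5 (0.90) and Dnahc7b (0.31) lie to the right of 0, and the widest intervals belong to the scarce dynein genes.

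The intraflagellar transport genes encode the trains that build the cilium. All 12 were tested, 7 had a positive and 5 a negative log2 fold change, and none passed. The 95% intervals together ran from -0.43 to 0.41 on the log2 scale, that is from a fold of 0.743 to 1.32. Ift122, of the retrograde complex A, came nearest (chromosome 6, 115853379 to 115926699). It had 72.5, 62.2, 72.2 and 80.6 CPM in controls I, J, L and M and 90.8, 79.1, 87.0 and 82.3 CPM in high fat A, B, F and G. Control M lay above high fat B, so the groups overlapped. Its log2 fold change was 0.23 ± 0.0776 (SE), with adjusted p = 0.0788 in edgeR, and it passed in DESeq2 (adjusted p = 0.0482) and in edgeR without control M (log2 0.29, adjusted p = 0.0346), 1 of 8 fits without 1 library, in which the adjusted p reached 0.172. Ift140, the other complex A gene among them, had a log2 fold change of 0.14 (95% interval -0.03 to 0.30).

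The 10 complex B genes, which carry cargo toward the tip, had 5 positive and 5 negative log2 fold changes. Ift20, which links the complex to the Golgi apparatus (chromosome 11, 78536361 to 78541732), had the highest control level per length, 21.7 CPM per kilobase. It stood at 24.0, 29.1, 24.8 and 20.8 CPM in controls I, J, L and M and at 21.5, 23.7, 20 and 19.5 CPM in high fat A, B, F and G. Control J was the highest and the groups overlapped, with a log2 fold change of -0.21 (95% interval -0.43 to 0.01). Ift88, the gene of the Oak Ridge polycystic kidney mouse, had 25.8 ± 1.38 CPM on the control diet and 28.9 ± 1.70 on the high fat diet (SD, n = 4), with adjusted p = 0.136 in edgeR.

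The 8 Bardet-Biedl genes encode BBSome subunits (6 genes) and the chaperonins that assemble it (Bbs10 and Bbs12). None passed, and none had an unadjusted p under 0.05. The intervals ran from -0.43 to 0.28 on the log2 scale. Bbs2, the most abundant per length at 7.26 CPM per kilobase (chromosome 8, 94067952 to 94099369), had 23.3, 21.6, 22.0 and 22.2 CPM in controls I, J, L and M. In high fat A, B, F and G it had 23.7, 24.6, 23.1 and 22.0 CPM. The groups overlapped, with a log2 fold change of 0.07 (95% interval -0.06 to 0.20).

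None of the 3 nephronophthisis genes passed. Nphp4, whose product sits at the base of the cilium, had 1.29, 1.32, 2.05 and 1.55 CPM in controls I, J, L and M and 1.81, 0.932, 2.42 and 1.54 CPM in high fat A, B, F and G. The groups overlapped. It rested on 17 to 59 counts per library and had a log2 fold change of 0.09 (95% interval -0.48 to 0.67).

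Pkd1, Pkd2 and Pkhd1 did not pass, and their intervals were narrow. Per kilobase of transcript, Pkhd1 stood at 56.5 CPM and Pkd2 at 48.5 on the control diet, above Pkd1 at 6.62. Pkhd1, which encodes fibrocystin (chromosome 1, 20057779 to 20618082), had 753, 681, 751 and 740 CPM in controls I, J, L and M and 743, 719, 708 and 690 CPM in high fat A, B, F and G. Control J was the lowest of the 8 libraries. The mean was 731 ± 34.3 CPM on the control diet and 715 ± 22.0 on the high fat diet (SD, n = 4), and the log2 fold change was -0.03 (95% interval -0.15 to 0.09).

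Pkd2, the channel subunit polycystin-2 (chromosome 5, 104453982 to 104505819), had 244, 253, 258 and 257 CPM in controls I, J, L and M and 280, 252, 254 and 240 CPM in high fat A, B, F and G. High fat A was the highest and G the lowest of the 8 libraries, so the high fat range enclosed the control range. The log2 fold change was 0.02 (95% interval -0.10 to 0.15). Pkd1, the receptor-like polycystin-1 (chromosome 17, 24548689 to 24596514), had 88.8, 100.2, 83.1 and 103 CPM in controls I, J, L and M and 98.1, 93.2, 110 and 101 CPM in high fat A, B, F and G. The groups overlapped, with a log2 fold change of 0.10 (95% interval -0.07 to 0.27). An exon of Pkd1 overlaps Tsc2 on the opposite strand, and reads from that overlap cannot be assigned without strand. Exons of Pkhd1, Dnahc6 and other genes of the set also overlap opposite-strand transcripts. The same holds for Zmynd10, Tmem237 and Rfx5, called genes of the further lists.

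Cilium genes outside the symbol rule were described with 9 lists of 140 entries, of which 138 genes were found and 115 were tested. Of these, 8 were higher and 3 lower, 9.57% against the 9.99% of all tested genes, with a median log2 fold change of 0.03. Leaving out control J gave 5 calls and leaving out high fat F gave 5, against 11 with all libraries. Calls over all tested genes fell too, from 1469 to 801 without control J and to 739 without high fat F. Pkdrej, a polycystin relative of sperm, rose from 5.26 ± 0.844 to 8.26 ± 1.29 CPM (SD, n = 4; log2 0.65, adjusted p = 0.0193 in edgeR), a call lost without control J.

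Of 24 transition zone genes, which form the gate at the base of the cilium, 3 were higher and 2 lower. Of all tested genes, 4.86% were higher and 5.13% lower. Cc2d2a rose from 28.6 ± 1.93 to 36.0 ± 1.73 CPM (log2 0.33, adjusted p = 0.0121 in edgeR), and Tmem237 from 23.2 ± 4.45 to 38.4 ± 7.99 (SD, n = 4 for each; log2 0.72). Ahi1, a Joubert syndrome gene, fell from 20.3 ± 0.695 to 16.5 ± 0.474 CPM (SD, n = 4; log2 -0.30, adjusted p = 0.0122 in edgeR). Tctn2 (log2 0.37) and Ccdc41 (now Cep83, log2 -0.24) also passed. The calls of Cc2d2a and Ahi1 held in 8 of 8 fits without 1 library, that of Tmem237 in 3, that of Tctn2 in 1 and that of Ccdc41 in none.

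Where 9.99% of all tested genes passed, 1 of 11 did among the intraflagellar transport genes named otherwise. It was Wdr19, a complex A gene, which rose from 13.8 ± 1.31 to 18.5 ± 1.98 CPM (SD, n = 4; log2 0.41, adjusted p = 0.0230 in edgeR), a call lost without high fat A, B or F or control J. Among the 9 cytoplasmic dynein genes tested, the light chain gene Dynll1 fell from 63.8 ± 4.20 to 42.5 ± 2.55 CPM (SD, n = 4; log2 -0.58, adjusted p = 0.00148 in edgeR). Of the cilium transcription factor genes, Rfx5, better known for major histocompatibility genes, rose from 15.4 ± 2.03 to 19.8 ± 1.19 CPM (SD, n = 4; log2 0.35, adjusted p = 0.0398 in edgeR). The call of Rfx5 held in 1 of 8 fits without 1 library. None passed among the 8 tested motors of the primary cilium, the 8 Bardet-Biedl genes named otherwise and the 18 tested genes of the ciliary membrane and Hedgehog signalling. In that order, 1, 3 and 2 of them had an unadjusted p under 0.05 in edgeR, where 4026 of all 14711 tested genes did.

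The dynein heavy chains are also among the longest transcripts, and the length of a transcript moved with the diet difference over all genes. The median log2 fold change was -0.06 in the 905 tested genes of up to 1000 bases, 0.06 in the 543 genes of 8000 to 12000 bases and 0.03 in the 136 genes above 12000 bases. With the trend of counts with length removed in each library, the log2 fold changes were 0.83 for Dnahc5 and 1.39 for Dnahc9 and both passed (adjusted p = 0.00264 and 0.00241 in edgeR), while Dnahc7b did not.

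**Figure D4:**
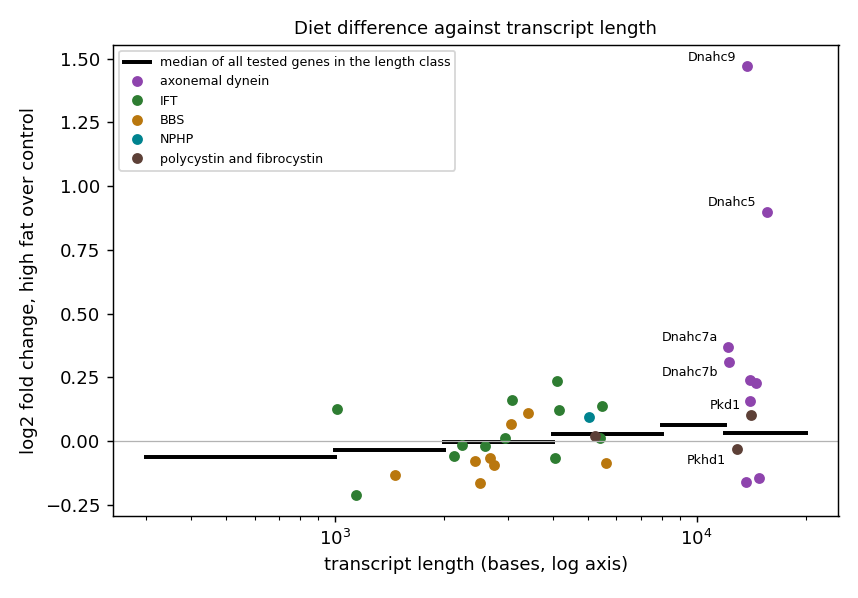
The horizontal axis is transcript length in bases on a log axis and the vertical axis the log2 fold change of high fat over control. Points are 33 of the 35 tested genes coloured by role, and black lines are the medians of all tested genes in 6 length classes, from -0.06 to 0.06. Dnahc9 and Dnahc5 lie far above the median of their class (0.03), while Pkhd1 and Pkd1, of like length, lie near it.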

How the data were processed

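RNA of 8 renal cortex libraries, 4 per diet, was analysed. The submitters' processing notes name CASAVA 1.8.2, RSEM 1.2.9 and the build mm10; no source used here gives the strand setting. The main file, deposited by the authors, holds expected counts of RSEM for each symbol, estimated read numbers that need not be whole. A deposited FPKM table covers these symbols and is scaled to a total that holds Rn45s. Comparison tables deposited by the authors list, per gene, a fold (the ratio of the diets) and, as a score between 0 and 1, the posterior probability that expression was equal.

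Expected counts without Rn45s were rounded and entered into edgeR 4.0.16 under R 4.3.3 (quasi-likelihood test, TMM, filterByExpr, diet as the only term, all 8 libraries), and adjusted by Benjamini-Hochberg over the 14711 tested genes; a gene was called under 0.05. The procedure was tested on simulated data. Transcript lengths and exon overlaps came from GENCODE M21, and gene bounds and promoters from RefSeq (GRCm38.p6). To RefSeq, 36 genes were matched by transcript accession and 1, the called gene Dnahc7b, by synonym only. The bounds and promoter given for Dnahc7b rest on that match. Values in every library are given for each member called, for Pkd1, Pkd2 and Pkhd1 and, apart from nephronophthisis genes, for the member of each role with the highest level per length, where Ift122 stands beside Ift20 because it was the higher of them on the high fat diet; from other lists called genes are named, at most 3 by the smallest p, and Tctn2 and Ccdc41 were added after their values were seen. Genes named for comparison beyond this were chosen after their values were seen. Some genes are not reported here. The members and lists were chosen with earlier results of these data known. Library letters differ between the diets, so nothing pairs the libraries. Alternatives were DESeq2 1.42.0, DESeq2 size factors, limma-voom (limma 3.58.1), limma on log2 FPKM, other filters and thresholds, Rn45s kept, a length correction, a robust fit and leaving out libraries; rescaled FPKM and the sum of Dnahc7a and Dnahc7b were added after seeing the data. Counting limits of 3 counts cover counting error only.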

Additional observations from a re-analysis of the deposited data

Results flagged for a closer look

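In 70 groups of 4 libraries (35 genes, 2 diets), 5 held 1 library far from the other 3 (a gap to the nearest above Dixon's critical value at 95%); chance flags about 1 in 20 groups. Control J stood apart for Ift57 (19.4 CPM, the others 21.4 to 21.7) and for Ift172 (46.9 CPM, the others 38.9 to 40.3). Dnahc2 was at 1.06 CPM in control I, with the others at 0.852 to 0.882. Dnahc11 was at 1.94 CPM in high fat A, with the others at 0.822 to 0.979, and Dnahc1 at 0.420 CPM in high fat B, with the others at 0.181 to 0.205. None of these 5 groups belongs to Dnahc5, Dnahc9 or Dnahc7b.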

How the results depend on the processing

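The count of members called, 3, was 0 of 30 tested in limma on FPKM as deposited with either pseudocount (0.1 or 1; 2 at an unadjusted p under 0.05), 4 with DESeq2 and at an adjusted p under 0.1, and 2 to 3 in the other settings, single libraries left out included. Calls over all 14711 tested genes rose too, from 1469 to 1842 with DESeq2 and to 2547 at an adjusted p under 0.1. On deposited FPKM, which carry the Rn45s share, the median of all genes shifted to 0.14 (pseudocount 0.1) and 0.09 (pseudocount 1) on the log2 scale; on FPKM rescaled without Rn45s it was 0.01, with 2 members called. Dnahc5 and Dnahc9 were called in 8 of 8 fits without 1 library, with log2 fold changes of 0.85 to 1.00 and 1.31 to 1.61, and Dnahc7b in 3 of 8, with 0.26 to 0.36. Without control J and high fat G, Dnahc7b was lost as well (adjusted p = 0.104 in edgeR), and on rescaled FPKM its adjusted p was 0.0902 in limma. The 11 other cilium genes called became 1 on FPKM as deposited with either pseudocount, 1 at an adjusted p under 0.01, 18 under 0.1, 4 without control J and high fat G, 2 on rescaled FPKM and 5 to 11 without 1 library. Calls over all tested genes, 1469 in the main fit, moved as well. They were 125 and 148 on FPKM as deposited (pseudocounts 0.1 and 1), 330 under 0.01 and 2547 under 0.1. Without control J and high fat G they were 417, on rescaled FPKM 793, and without 1 library 739 to 1528. The cause of these shifts was not tested. No called member changed sign; 18 others did.

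On FPKM with pseudocounts of 0.1 and 1, the log2 fold changes were 0.062 and 0.032 for Bbs1, 0.090 and 0.067 for Bbs7, 0.070 and 0.026 for Bbs10, 0.075 and 0.020 for Bbs12, 0.13 and 0.12 for Ift52, 0.14 and 0.11 for Ift57, 0.093 and 0.068 for Ift74, 0.081 and 0.060 for Ift80 and 0.12 and 0.12 for Pkhd1; with 0.1 it was 0.0042 for Bbs5. On rescaled FPKM Ift57 had 0.0014. With the length trend removed, the values were -0.0061 for Ift81, -0.040 for Ift172 and -0.027 for Pkd2. Without control J and high fat G, Dnahc10 had -0.095. Without 1 library, the ranges were -0.14 to 0.0040 for Bbs12, -0.046 to 0.0038 for Ift52, -0.050 to 0.057 for Ift81, -0.016 to 0.072 for Ift172, -0.14 to 0.28 for Nphp4, -0.0024 to 0.79 for Dnahc8, -0.13 to 0.37 for Dnahc11, -0.30 to 0.026 for Dnahc17 and -0.024 to 0.051 for Pkd2. No paired analysis was possible because the groups share no replicate label. Genes with few counts, such as most dynein heavy chains, had wide intervals at this depth, and those under the filter of a setting have no value there.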
